A study of Mus musculus with 8 samples.

Results

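The interferon-gamma inducible GTPases described here are 9 mouse genes, 4 guanylate-binding proteins (Gbp2, Gbp3, Gbp5 and Gbp7) and 5 immunity-related GTPases (Irgm1, Irgm2, Igtp, Iigp1 and Tgtp2). They were chosen by symbol from a table of read counts for 55414 genes, without using their values in the rule. Bulk RNA was sequenced from a mouse model of supratentorial ependymoma driven by the ZFTA-RELA fusion, which joins Zfta to Rela, a member of the NF-kB transcription factor family. The 8 libraries form 4 groups of 2, naive brain and tumor of mice given vehicle and naive brain and tumor of mice given MRX-2843. MRX-2843 inhibits MERTK and FLT3, both receptor tyrosine kinases, and is taken by mouth. Mice whose tumor had been seen by MRI were randomised to vehicle or to 50 mg/kg MRX-2843 by gavage, given once a day for 5 days, and were killed 1 h after the last dose. The labels give the fusion as the genotype of all 8 libraries, naive brain included. They leave unsaid which mice gave the naive brain, how the fusion was introduced and how old the mice were. They call the libraries of a group duplicates without naming separate animals, so the p-values below may measure technical spread only.

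Interferon-gamma binds a receptor of IFNGR1 and IFNGR2 chains, which signals through the kinases JAK1 and JAK2. The signal reaches genes at gamma-activated sequences and, through induced factors such as IRF1, at interferon-stimulated response elements. Guanylate-binding proteins and immunity-related GTPases are among the strongest targets of this pathway in mouse cells, where they gather on the membranes of vacuoles that hold microbes and help to break them open. Irgm1, Irgm2 and Igtp are regulators that sit on the cell's own membranes and keep effector GTPases such as Iigp1 and Tgtp2 inactive there. In brain these genes are induced in microglia, astrocytes and other cells under interferon.

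The promoters are shown because the 9 genes moved together and because both kinds of element are short enough to be read in them. RefSeq windows on GRCm38.p6, from 250 bases before to 50 bases after the start, were found for 8 of the 9 members, all but Iigp1. Capitals mark the match to the response element, searched on both strands as GAAA, any 2 bases and GAAA again, and positions count from the RefSeq start. Where a pair of matches overlap, the whole run is in capitals.
Gbp2, chr3:142620589-142620628, plus strand, from -59: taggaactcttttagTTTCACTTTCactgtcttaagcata
Gbp3, chr3:142559984-142560029, plus strand, from -45: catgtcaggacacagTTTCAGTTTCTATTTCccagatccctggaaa
Gbp5, chr3:142496754-142496793, plus strand, from -165: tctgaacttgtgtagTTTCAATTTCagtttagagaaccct
Gbp7, chr3:142530268-142530307, plus strand, from -53: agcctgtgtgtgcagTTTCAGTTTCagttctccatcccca
Irgm1, chr11:48871420-48871465, minus strand, from -30: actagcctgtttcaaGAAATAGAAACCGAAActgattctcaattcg
Irgm2, chr11:58214898-58214937, plus strand, from -64: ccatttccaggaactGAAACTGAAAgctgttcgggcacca
Igtp, chr11:58199507-58199546, plus strand, from -34: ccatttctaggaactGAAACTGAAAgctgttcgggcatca
Tgtp2, chr11:49064258-49064297, minus strand, from -70: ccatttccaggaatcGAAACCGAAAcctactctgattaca

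The response element was matched in 8 of the 8 members with a window, against 3.99% of all 27025 genes with a window and 3.44% of all 32851 windows. Gbp3 has 2 windows, of which the other held no match. In the 4 guanylate-binding genes the match ran in the reverse orientation, and in the 4 immunity-related genes in the forward one. A gamma-activated sequence, searched as TTCNNNGAA, which reads the same on both strands, was matched in 5 of the 8 members (Gbp5, Gbp7, Irgm2, Igtp and Tgtp2), against 9.55% of genes and 8.3% of windows. In Irgm2, Igtp and Tgtp2 that match started 11 bases before the response element and did not overlap it. The windows of Igtp and Irgm2 were identical at 184 of 270 aligned bases (68.1%). An NF-kB site, searched on both strands as GGGA, any base and TTTCC, was matched in Gbp5 only, against 0.466% of genes and 0.411% of windows. The response element was also searched in the gene lists described below. It was matched in 5 of 10 type I interferon genes with a window and 1 of 12 other interferon-gamma targets. It was matched in 3 of 6 other immunity-related and very large GTPases and 1 of 1 other guanylate-binding gene. Receptor and signalling genes held it in 2 of 10, and vacuole and inflammasome genes in 1 of 14. A match describes letters in a window and not a bound site.

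**Figure D1:**
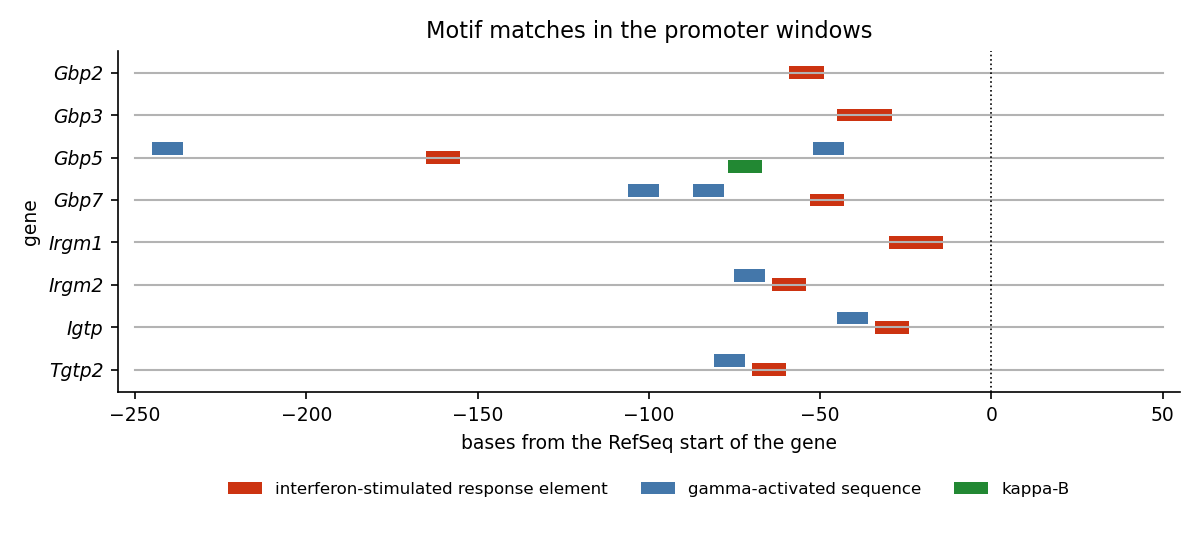
Motif matches in the RefSeq promoter windows of the 8 members that have one, by distance in bases from the start of the gene (dotted line); red bars are interferon-stimulated response elements, blue bars gamma-activated sequences and the green bar the NF-kB site. All 8 windows carry a red bar, and in Irgm2, Igtp and Tgtp2 a blue bar lies just before it.

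Levels are given as CPM, that is counts divided by a common scale of library size. Library totals ran from 51150569 to 112938462 counts, and 24356 genes, all 9 members among them, passed the filter on low counts. The libraries labelled MRX-2843 tumor stood with naive brain: their Pearson's r over 12636 genes was 0.962 to 0.964 with vehicle naive brain and 0.487 to 0.492 with vehicle tumor. Of the counts in vehicle tumor, 3.26% and 3.37% came from mitochondrially encoded genes, against 14.7% to 18.5% in the other 6 libraries. Xist ran from 502 to 771 raw CPM under MRX-2843 and from 0.461 to 2.75 raw CPM under vehicle, and Ddx3y, on the Y chromosome, had 2168 to 6717 counts under vehicle and 0 under MRX-2843. Treatment therefore cannot be told apart from the levels of these sex-linked genes, nor from a number that the column names carry without explanation. It was 909 in every MRX-2843 library, 915 in the second vehicle naive library and 914 in the other vehicle libraries. Tumor and naive brain libraries thus share numbers, and what the number stands for is not said.

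In vehicle tumor, all 9 GTPases were far above vehicle naive brain, by 4.65 to 7.02 on the log2 scale. CPM are over totals scaled by TMM unless called raw, group levels are given as mean ± SD of 2 libraries, and differences are log2 fold changes ± SE with Benjamini-Hochberg adjusted p-values from edgeR's quasi-likelihood test. The summed level of the 9 was 32.4 and 30.5 CPM in vehicle naive brain and 1548 and 1621 CPM in vehicle tumor, a ratio of 50.4. It was 39.8 and 37.1 CPM in MRX-2843 naive brain and 59.8 and 62.5 CPM in MRX-2843 tumor. Vehicle tumor thus stood alone, and the 6 other libraries lay between 30.5 and 62.5 CPM. At an adjusted p under 0.05, 9 of 9 members rose in vehicle tumor against vehicle naive brain, where 29.3% of all tested genes rose and 30.8% fell (60.1% in either direction). All 9 were lower in MRX-2843 tumor than in vehicle tumor, where 29.8% of all genes were lower and 30.6% higher (60.4% in either direction). In bulk tissue, fewer cells that express a gene and less RNA per cell cannot be told apart.

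**Figure D2:**
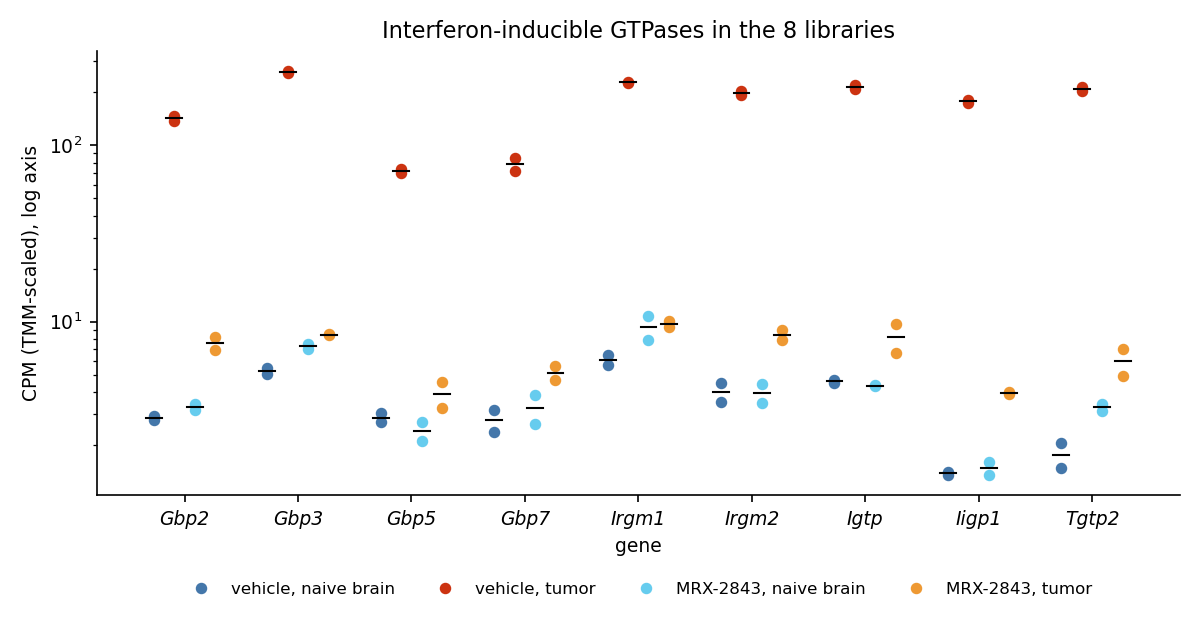
CPM (log axis) of each GTPase in each of the 8 libraries, coloured by group, with a bar at the group mean (n = 2). Vehicle tumor, in red, lies above the other 3 groups for all 9 genes, from 70.0 CPM in a library for Gbp5 to 265 CPM for Gbp3.

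The 4 guanylate-binding genes form a cluster on chromosome 3. Gbp2, whose protein coats vacuoles and bacteria in mouse cells, lies at chr3:142620602-142638008 (GRCm38, GENCODE M21, plus strand). It was at 2.91 and 2.77 CPM in vehicle naive brain and 138 and 147 CPM in vehicle tumor. In MRX-2843 naive brain it was at 3.42 and 3.13 CPM, and in MRX-2843 tumor at 8.19 and 6.88 CPM. The groups did not overlap in any of the 4 comparisons between groups. Gbp2 rose 50.3-fold in vehicle tumor (5.65 ± 0.12, adjusted p = 4.4e-15) and was 19.0-fold lower in MRX-2843 tumor than in vehicle tumor (-4.25 ± 0.11, adjusted p = 4.2e-14).

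Gbp3, of the same cluster, which mice need as a whole to control Toxoplasma, lies at chr3:142560026-142573209 on the plus strand. It was at 5.42 and 5.06 CPM in vehicle naive brain and 257 and 265 CPM in vehicle tumor, the highest CPM of the 9. In MRX-2843 naive brain it was at 7.42 and 7.03 CPM and in MRX-2843 tumor at 8.35 and 8.51 CPM. Its groups did not overlap either, but those under the drug lay close together. Gbp3 rose by 5.64 ± 0.08 in vehicle tumor (adjusted p = 1.4e-16) and was 30.9-fold lower in MRX-2843 tumor than in vehicle tumor (-4.95 ± 0.08, adjusted p = 3.8e-16).

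Gbp5, which promotes assembly of the NLRP3 inflammasome, lies at chr3:142493978-142522344 on the plus strand. It was at 3.01 and 2.68 CPM in vehicle naive brain, 70.0 and 73.4 CPM in vehicle tumor, 2.09 and 2.68 CPM in MRX-2843 naive brain and 3.23 and 4.52 CPM in MRX-2843 tumor. Gbp7, linked in mouse macrophages to the autophagy machinery and to the NADPH oxidase, lies at chr3:142530342-142550149 on the plus strand. It was at 3.16 and 2.37 CPM in vehicle naive brain, 72.0 and 84.5 CPM in vehicle tumor, 2.62 and 3.85 CPM in MRX-2843 naive brain and 4.66 and 5.61 CPM in MRX-2843 tumor. For both genes vehicle tumor lay above all other libraries, MRX-2843 tumor above naive brain, and the naive groups met (Gbp5, at 2.68 CPM) or overlapped (Gbp7). These were the members with the smallest rises in vehicle tumor, 25.1-fold for Gbp5 (4.65 ± 0.17, adjusted p = 3e-12) and 28.3-fold for Gbp7 (4.82 ± 0.19, adjusted p = 7.6e-12). Against vehicle tumor, MRX-2843 tumor was lower by a log2 fold change of -4.21 ± 0.17 for Gbp5 (adjusted p = 8.2e-12) and -3.93 ± 0.18 for Gbp7 (adjusted p = 4.9e-11). Exons of Gbp7 overlap those of Gm43802 on the same strand over 637 bases (11.3%), where reads cannot be assigned to one gene.

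The regulators Irgm1, Irgm2 and Igtp lie on chromosome 11. Irgm1, which mice need for resistance to mycobacteria, is at chr11:48861968-48871683 on the minus strand. It was at 6.49 and 5.65 CPM in vehicle naive brain, 228 and 230 CPM in vehicle tumor, 10.7 and 7.89 CPM in MRX-2843 naive brain and 10.1 and 9.32 CPM in MRX-2843 tumor. Only its MRX-2843 groups overlapped. Irgm1 rose 37.7-fold in vehicle tumor (5.24 ± 0.13, adjusted p = 2.2e-14), and MRX-2843 tumor was 23.6-fold below vehicle tumor (-4.56 ± 0.12, adjusted p = 7.8e-14).

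Irgm2 spans chr11:58199618-58222782 and Igtp, also called Irgm3, spans chr11:58199556-58207591, both on the plus strand, and their annotated exons share 162 bases. Irgm2 was at 3.50 and 4.47 CPM in vehicle naive brain, 194 and 204 CPM in vehicle tumor, 4.43 and 3.45 CPM in MRX-2843 naive brain and 7.84 and 9.0 CPM in MRX-2843 tumor. Igtp was at 4.48 and 4.66 CPM in vehicle naive brain, 209 and 219 CPM in vehicle tumor, 4.29 and 4.35 CPM in MRX-2843 naive brain and 6.59 and 9.73 CPM in MRX-2843 tumor. For both genes the naive groups lay together and MRX-2843 tumor lay slightly above them. The rise in vehicle tumor was 49.9-fold for Irgm2 (5.64 ± 0.13, adjusted p = 1.6e-14) and 46.8-fold for Igtp (5.55 ± 0.14, adjusted p = 3.5e-14). Against vehicle tumor, MRX-2843 tumor was lower by a log2 fold change of -4.56 ± 0.12 for Irgm2 (adjusted p = 8.9e-14) and -4.71 ± 0.13 for Igtp (adjusted p = 1.4e-13).

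The effectors had the largest rises of the 9. Iigp1, also called Irga6, an effector that oligomerises on vacuoles of Toxoplasma, lies on chromosome 18. It was at 1.41 and 1.34 CPM in vehicle naive brain, 175 and 182 CPM in vehicle tumor, 1.35 and 1.59 CPM in MRX-2843 naive brain and 3.87 and 3.98 CPM in MRX-2843 tumor. Its naive groups overlapped, and its MRX-2843 tumor libraries lay above them. Iigp1 rose 130.0-fold in vehicle tumor (7.02 ± 0.11, adjusted p = 2.5e-16), and MRX-2843 tumor was 45.5-fold below vehicle tumor (-5.51 ± 0.10, adjusted p = 9.9e-16). By log2 fold change in vehicle tumor it ranked 549 of 24356 tested genes, and Gbp5, the lowest member, ranked 1297.

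Tgtp2, of the Irgb6 type that binds the vacuole membrane early, lies at chr11:49057194-49064206 on the minus strand. It was at 2.04 and 1.47 CPM in vehicle naive brain, 205 and 216 CPM in vehicle tumor, 3.42 and 3.11 CPM in MRX-2843 naive brain and 6.94 and 4.92 CPM in MRX-2843 tumor. None of its groups overlapped. Tgtp2 rose 119-fold in vehicle tumor (6.90 ± 0.16, adjusted p = 1.3e-14), and MRX-2843 tumor was 35.5-fold below vehicle tumor (-5.15 ± 0.14, adjusted p = 9.8e-14). Its value is uncertain because 76.8% of the 100-base stretches of its transcripts also occur in its near copy Tgtp1, and how the authors counted reads that fit both is not stated. Tgtp1 gave 0.632 to 0.985 counts per count of Tgtp2 over the 8 libraries and rose by 6.55 ± 0.16 in vehicle tumor (adjusted p = 2.8e-14).

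Scaled by exon length, the order of the levels in vehicle tumor began with Igtp, at 106 ± 3.49 CPM per kb, followed by Gbp3 at 79.9 ± 1.67 and Tgtp2 at 71.6 ± 2.73 (SD, n = 2). Gbp2 at 56.8 ± 2.53 and Irgm2 at 53.8 ± 1.86 CPM per kb were neighbours whose libraries overlapped. Then came Irgm1 at 39.4 ± 0.317, Iigp1 at 30.7 ± 0.852, Gbp7 at 13.9 ± 1.58 and Gbp5 at 10.8 ± 0.365 CPM per kb. Libraries of the other neighbours did not overlap. In vehicle naive brain Igtp (2.26 ± 0.0646 CPM per kb) and Gbp3 (1.61 ± 0.078) also led, but Iigp1 was last at 0.236 ± 0.00799, and Tgtp2, at 0.598 ± 0.136, overlapped Gbp7, which overlapped Gbp5. Gbp2, Irgm2 and Irgm1 overlapped their neighbours between 1.04 and 1.13 CPM per kb. The effectors thus stood lower among the 9 in naive brain than in vehicle tumor. The place of Tgtp2 in either order is uncertain, since 76.8% of its 100-base stretches also occur in Tgtp1.

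Under MRX-2843 a far smaller difference between tumor and naive brain was measured. In MRX-2843 tumor, 7 of 9 members were higher than in MRX-2843 naive brain at an adjusted p under 0.05 by edgeR's quasi-likelihood test, where 12.4% of all genes were higher and 24.4% differed in either direction, with a median log2 fold change of 0.87 over the 9 and 0 over all genes. The rises ran from Gbp7 (0.63 ± 0.19, adjusted p = 0.024) and Gbp5 (0.67 ± 0.18, adjusted p = 0.011) over Tgtp2 (0.87 ± 0.15, adjusted p = 0.00071) and Igtp (0.92 ± 0.14, adjusted p = 0.00022) to Irgm2 (1.13 ± 0.13, adjusted p = 2e-05), Gbp2 (1.21 ± 0.12, adjusted p = 2.8e-06) and Iigp1 (1.38 ± 0.12, adjusted p = 1.2e-06). In fold terms Gbp2 rose 2.32-fold and Iigp1 2.60-fold. Gbp3 (0.23 ± 0.08, adjusted p = 0.056) and Irgm1 (0.09 ± 0.12, adjusted p = 0.69) did not pass the test. Gbp5 and Gbp7 lost their call without the first MRX-2843 naive library (0.53 and 0.42) or without the second MRX-2843 tumor library (0.42 and 0.49), with adjusted p-values of 0.0607 to 0.154. They also lost it when only the groups compared were fitted, which left 5 members higher, and when both vehicle tumor libraries were left out, which left 5. Gbp3 passed with median-of-ratios scaling, library totals, DESeq2 or the stricter filter, at 0.25 to 0.27.

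Between the naive brains, 3 of 9 members were higher under MRX-2843 than under vehicle, where 9.78% of all genes were higher and 21.5% differed in either direction, with a median log2 fold change of 0.19 over the 9 and 0.02 over all genes. These were Gbp3 (0.46 ± 0.08, adjusted p = 0.0011), Irgm1 (0.59 ± 0.13, adjusted p = 0.0032) and Tgtp2 (0.88 ± 0.18, adjusted p = 0.0024) by edgeR's quasi-likelihood test. Values of the other 6 ran from -0.23 ± 0.18 for Gbp5 (adjusted p = 0.45) to 0.27 ± 0.20 for Gbp7 (adjusted p = 0.4). The call of Gbp3 was lost when only the groups compared were fitted (0.45, adjusted p = 0.0979) and when both vehicle tumor libraries were left out (0.45, adjusted p = 0.0818). Irgm1 kept its call without the first MRX-2843 naive library, but at 0.38.

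The difference between tumor and naive brain was smaller under MRX-2843 than under vehicle for 9 of 9 members by the interaction of treatment and tissue, which was called negative in 25.3% of all genes and called in either direction in 51.6%. The interaction had a median of -4.63 over the 9 and 0.02 over all genes and ran from -3.98 ± 0.24 for Gbp5 (adjusted p = 1.7e-09) to -6.03 ± 0.22 for Tgtp2 (adjusted p = 5.5e-12) in edgeR's quasi-likelihood test. The interaction and the comparison of the tumors share the vehicle tumor libraries with the first comparison. Since the MRX-2843 tumor libraries resembled naive brain across the genome, an effect of the drug on these genes cannot be told apart from a difference in the tissue sampled.

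**Figure D3:**
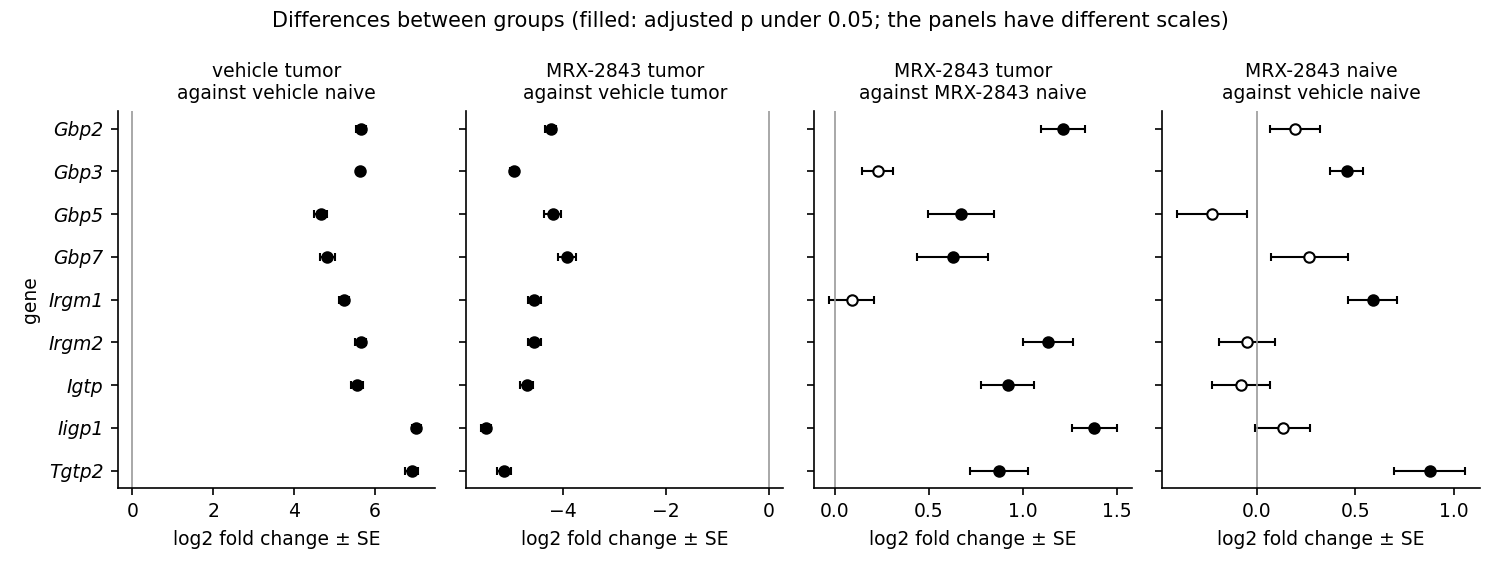
Log2 fold change ± SE of each GTPase in the 4 comparisons between groups (2 libraries per group; filled points have an adjusted p under 0.05 and the panels differ in scale). All points of the first panel lie above 4 and all of the second below -3, while those of the other panels lie between -0.23 and 1.38.

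The rest of the guanylate-binding family was highest in vehicle tumor too. Of 7 other members, 6 rose in vehicle tumor and 6 were lower in MRX-2843 tumor than in vehicle tumor, beside 29.3% and 29.8% of all genes. Their median log2 fold changes were 6.06 and -4.10 (4.51 and -3.95 with Gbp2b at the bound that its 0 counts allow). Over all genes the medians were -0.03 and 0.03. Gbp6 went from 1.43 ± 0.00363 CPM in vehicle naive brain to 169 ± 1.56 CPM in vehicle tumor (6.88 ± 0.19, adjusted p = 9e-14), Gbp10 rose by 7.11 ± 0.30 (adjusted p = 1.7e-11), Gbp9 by 4.51 ± 0.19 (adjusted p = 1.4e-11) and Gbp4 by 4.37 ± 0.22 (adjusted p = 1.6e-10), by edgeR's quasi-likelihood test. Values of Gbp6 and Gbp10 are uncertain, since 59.0% and 63.6% of their 100-base stretches also occur in Gm43302, and 35.5% and 26.5% occur in no other gene. Gbp2b, the gene once called Gbp1, had 43 counts over vehicle tumor and 0 in every other library, at least 11.2-fold higher than in vehicle naive brain with the floor of 3 counts over the group, but did not pass the test (adjusted p = 0.052). In MRX-2843 tumor against MRX-2843 naive brain 4 of the 7 were higher (median 0.85), beside 12.4% of all genes. Between the naive brains 2 of the 7 were higher under MRX-2843 (median 0.24), beside 9.78% of all genes.

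Of 11 other immunity-related and very large GTPases, 9 rose and 2 fell in vehicle tumor (median log2 fold change 5.41), beside 29.3% and 30.8% of all genes. Gm12250, or Irgb10, which acts with guanylate-binding proteins on bacterial membranes in mouse cells, rose by 7.36 ± 0.28 (adjusted p = 5e-12). Gm4951, listed by RefSeq as Ifgga2, went from 0.117 to 64.3 CPM (9.08 ± 0.24, adjusted p = 7.3e-14), and was also higher in MRX-2843 tumor than in MRX-2843 naive brain (2.85 ± 0.24, adjusted p = 7.7e-07). F830016B08Rik, listed as Ifgga4, had 377 counts in vehicle tumor, at least 98.4-fold more than in vehicle naive brain, where it had 0. Irgq, which lacks the interferon response of the family, fell from 88.6 to 30.3 CPM (-1.55 ± 0.07, adjusted p = 8.1e-11), and Irgc1, a gene of the testis, fell by 4.62 on the log2 scale (adjusted p = 1.5e-05). Each of these tests was edgeR's quasi-likelihood test. In MRX-2843 tumor, 9 of the 11 were lower than in vehicle tumor and 2 higher (median -3.52), beside 29.8% and 30.6% of all genes. Against MRX-2843 naive brain, 7 of the 11 were higher (median 1.05), beside 12.4% of all genes. Among these 7, F830016B08Rik had 29 counts in the first MRX-2843 tumor library and 0 in the second. Irgc1, another of them, was at 0.041 CPM in MRX-2843 naive brain, 3.17 CPM in MRX-2843 tumor and 3.71 CPM in vehicle naive brain.

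Interferon-gamma's own gene, Ifng, was near the floor of detection. Ifng had 28 counts over vehicle tumor and 0 in every other library, at least 7.31-fold higher than in vehicle naive brain with the floor of 3 counts over the group, and did not pass edgeR's quasi-likelihood test (adjusted p = 0.087). Of the 14 genes of the receptor and its signalling, 13 rose in vehicle tumor (median 4.0, or 3.43 with Ifng at its bound). In MRX-2843 tumor 12 were lower than in vehicle tumor (median -3.40, or -3.04). Of all genes, 29.3% rose in the first comparison and 29.8% were lower in the second. The receptor chain Ifngr1 went from 14.1 to 117 CPM (3.06 ± 0.09, adjusted p = 3.4e-13), and Ifngr2 rose by 1.21 ± 0.08 (adjusted p = 4.8e-09). The kinase genes moved least, Jak1 by 0.43 ± 0.07 (adjusted p = 6e-05) and Jak2 by 0.52 ± 0.12 (adjusted p = 0.0016).

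Irf1 and Nlrc5, regulators of transcription, had larger rises than either receptor chain. Irf1 was at 5.82 CPM in vehicle naive brain, 117 CPM in vehicle tumor, 4.80 CPM in MRX-2843 naive brain and 7.13 CPM in MRX-2843 tumor, a rise of 4.33 ± 0.14 in vehicle tumor (adjusted p = 9e-13 by edgeR's quasi-likelihood test). Nlrc5, the activator of class I antigen presentation genes, rose by 6.18 ± 0.18 (adjusted p = 1.5e-13). In MRX-2843 tumor against MRX-2843 naive brain, 6 of the 14 were higher and 1 lower (median 0.28), beside 12.4% and 11.9% of all genes. Nlrc5 (1.23 ± 0.16, adjusted p = 5.1e-05) and Irf1 (0.54 ± 0.15, adjusted p = 0.013) rose there.

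Other targets of interferon-gamma moved with the GTPases. Of 18, 17 rose and 1 fell in vehicle tumor (median 5.57), beside 29.3% and 30.8% of all genes. In MRX-2843 tumor 17 were lower than in vehicle tumor and 1 higher (median -4.28), beside 29.8% and 30.6% of all genes. Against MRX-2843 naive brain, 8 were higher and 3 lower in MRX-2843 tumor (median 0.54), beside 12.4% and 11.9% of all genes. Between the naive brains, 10 of the 18 were higher under MRX-2843 and 0 lower (median 0.58), beside 9.78% and 11.7% of all genes. The peptide loading genes Tapbp (4.52 ± 0.07, adjusted p = 3.1e-16) and Tap1 (6.09 ± 0.10, adjusted p = 6.2e-16) and the class II genes Cd74 (6.22 ± 0.12, adjusted p = 2.2e-15) and H2-Ab1 (7.12 ± 0.14, adjusted p = 3e-15) rose in vehicle tumor by edgeR's quasi-likelihood test. In MRX-2843 tumor against MRX-2843 naive brain, Cd74 rose by 1.22 ± 0.10 (adjusted p = 7.6e-07) and H2-Ab1 by 1.76 ± 0.13 (adjusted p = 2.3e-07). Both were also higher in MRX-2843 naive brain than in vehicle naive brain. By edgeR's quasi-likelihood test, Cd74 was higher there by 1.67 ± 0.12 (adjusted p = 1e-07) and H2-Ab1 by 1.15 ± 0.17 (adjusted p = 0.00013). The target that fell in vehicle tumor was Ido1, named after its value was seen, a tryptophan-degrading enzyme (-2.32 ± 0.44, adjusted p = 0.0003). It was also the target that was higher in MRX-2843 tumor than in vehicle tumor, 46.6-fold (5.54 ± 0.45, adjusted p = 4.1e-08 by edgeR's quasi-likelihood test).

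Genes of type I interferon rose in vehicle tumor as well. Of 13 tested, 12 rose there (median 6.39), beside 29.3% of all genes. In MRX-2843 tumor 12 were lower than in vehicle tumor (median -7.15, or -6.07 with Ifnb1 at its bound), beside 29.8% of all genes. The ligand gene Ifnb1 had 84 and 27 counts in vehicle tumor, 0 and 4 in vehicle naive brain and 0 under MRX-2843. By edgeR's quasi-likelihood test it did not pass in vehicle tumor against vehicle naive brain (adjusted p = 0.056). It was lower in MRX-2843 tumor than in vehicle tumor, at least 24.6-fold (adjusted p = 0.012 by the same test). Ifit3 rose by 6.39 ± 0.10 (adjusted p = 3.2e-16), Oas2, which senses double-stranded RNA, by 8.25 ± 0.13 (adjusted p = 3.4e-16), the transcription factor Irf7 by 7.39 ± 0.13 (adjusted p = 6.3e-16) and the ubiquitin-like Isg15 by 7.77 ± 0.15 (adjusted p = 2.5e-15), by edgeR's quasi-likelihood test. In MRX-2843 tumor against MRX-2843 naive brain 1 of the 13 was higher (Irf7, 1.05, adjusted p = 0.00015) and 1 lower (Oas2, -0.95, adjusted p = 0.0018), beside 12.4% and 11.9% of all genes, with a median of 0.17. Ifit3 (0.17, adjusted p = 0.22) and Isg15 (-0.09, adjusted p = 0.83) did not pass. Whether the list differed from the GTPases was not tested.

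Genes that act with the GTPases at vacuoles or in the inflammasome moved in both directions. Of 17, 11 rose and 5 fell in vehicle tumor (median 0.44), where 29.3% of all genes rose and 30.8% fell. The pyroptosis effector Gsdmd (4.98 ± 0.16, adjusted p = 4.7e-13), the protease gene Casp1 (5.37 ± 0.26, adjusted p = 7e-11) and the antibody receptor and ubiquitin ligase gene Trim21 (4.66 ± 0.23, adjusted p = 9.9e-11) rose, while Gabarapl1, an autophagy gene of the family that guides these GTPases to vacuoles in mouse cells, fell (-2.56 ± 0.05, adjusted p = 6e-15), by edgeR's quasi-likelihood test. Other genes of the Gabarapl1 family went both ways in vehicle tumor, with Gabarap (0.81) and Map1lc3b (0.20) called higher and Gabarapl2 (-0.66) called lower. In MRX-2843 tumor against MRX-2843 naive brain 2 of the 17 were higher and 4 lower (median 0.00), beside 12.4% and 11.9% of all genes.

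**Figure D4:**
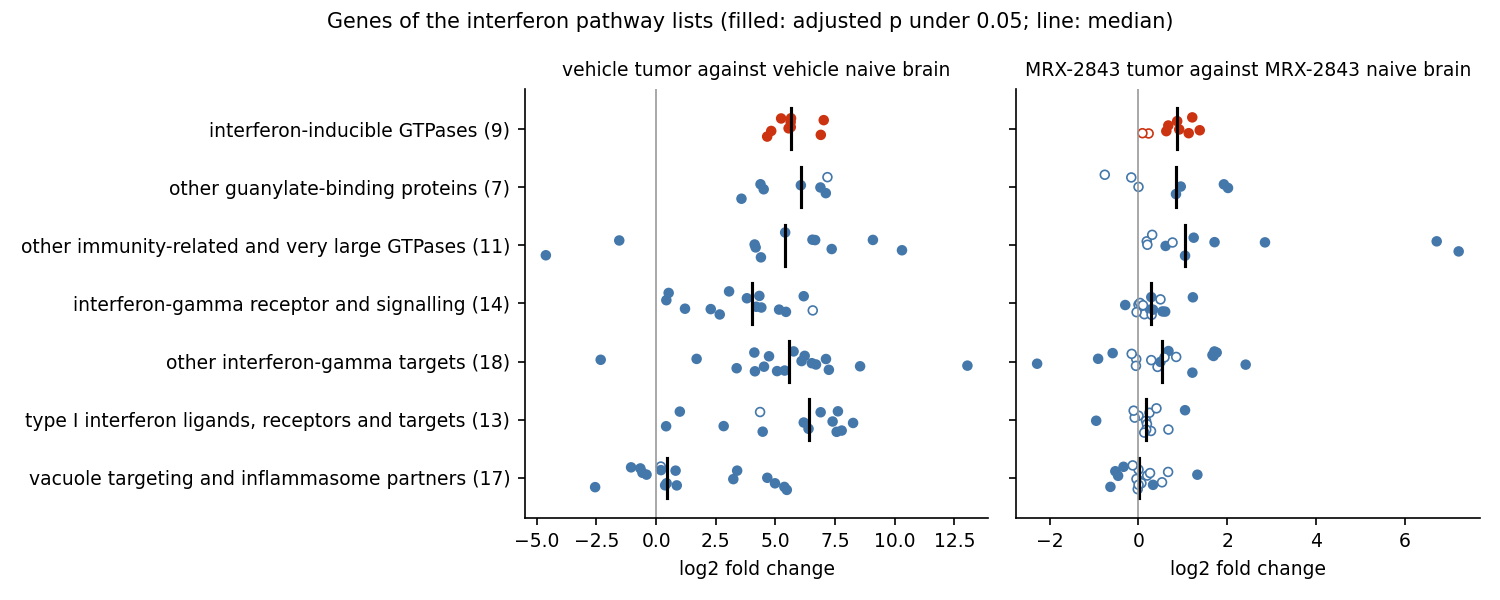
Log2 fold change of each tested gene of the 9 GTPases (red) and of 6 pathway lists (blue) for vehicle tumor against vehicle naive brain and MRX-2843 tumor against MRX-2843 naive brain; filled points have an adjusted p under 0.05, lines are medians, and points of genes with 0 counts in a group depend on the prior count of the fit. The median of the GTPases is 5.64 in the left panel and 0.87 in the right, where that of the type I list is 0.17.

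The 10 genes whose pattern over the 8 libraries was most like the mean of the 9 GTPases were AU020206, B2m, H2-D1, Tead2, Vim, Col5a2, Psmb9, H2-K1, Tap1 and Rnf213. Likeness was the root mean square distance between centred log2 CPM profiles, over 12627 candidate genes, and ran from 0.129 for AU020206, a long noncoding RNA, and 0.140 for B2m, which encodes the class I light chain, to 0.219 for Rnf213. The members' own distances from their mean ran from 0.173 for Igtp to 0.576 for Iigp1. Most of the pattern is the single step between vehicle tumor and the other 6 libraries, so genes without a known interferon response, such as the collagen gene Col5a2, share it.

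Markers of immune cells were also highest in vehicle tumor. The 7 microglial markers summed to 253 and 250 CPM in vehicle naive brain, 1825 and 1878 CPM in vehicle tumor, 259 and 251 CPM in MRX-2843 naive brain and 339 and 339 CPM in MRX-2843 tumor. The 7 markers of macrophages and monocytes summed to 16.1 and 17.4, 347 and 361, 19.8 and 18.1, and 17.8 and 21.1 CPM in the same order, with Plac8 at 0 counts in vehicle naive brain. The 8 T and NK cell markers summed to 0.59 and 0.89 CPM in vehicle naive brain and 26.3 and 26.1 CPM in vehicle tumor. They were at 0.70 and 0.99 CPM in MRX-2843 naive brain and 1.18 and 0.71 CPM in MRX-2843 tumor, where Cd3e and Prf1 had 0 counts. From vehicle naive brain to vehicle tumor these sums rose 7.35-fold, 21.1-fold and 35.3-fold, beside 50.4-fold for the GTPases. From MRX-2843 naive brain to MRX-2843 tumor the sums changed 1.33-fold for microglia, 1.03-fold for macrophages and monocytes and 1.12-fold for T and NK cells, beside 1.59-fold for the GTPases. In that comparison the summed markers of oligodendrocytes (1.88-fold), ependymal cells (1.84-fold) and astrocytes (1.47-fold) stood highest. Those of neurons (1.18-fold) and endothelium (0.985-fold) stood below them. Called higher were 6 of 6 oligodendrocyte, 6 of 7 microglial, 4 of 6 astrocyte and 1 of 6 ependymal markers, beside 12.4% of all genes. Of these lists, 0 markers were lower. Of the 7 macrophage and monocyte markers 2 were higher and 1 was lower. Of the 8 T and NK cell markers 0 were higher and 1 was lower, and of the 6 endothelial markers also 0 and 1. Of the 6 neuronal markers 1 was higher and 2 were lower, beside 12.4% and 11.9% of all genes. Slc17a7 went from 150 CPM in MRX-2843 naive brain to 795 CPM in MRX-2843 tumor, and Gad1 from 341 to 188 CPM.

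Other cell types also moved with the groups. Endothelial markers summed to 141 to 154 CPM in 6 libraries and to 553 and 543 CPM in vehicle tumor. Astrocyte markers summed to 2207 and 2205 CPM in vehicle naive brain and 3547 and 3616 CPM in vehicle tumor. They were at 1792 and 1824 CPM in MRX-2843 naive brain and 2715 and 2605 CPM in MRX-2843 tumor. The astrocyte markers did not move together in vehicle tumor, where 2 of the 6 rose and 3 fell, beside 29.3% and 30.8% of all genes. Gfap went from 143 CPM in vehicle naive brain to 2705 CPM in vehicle tumor, while Slc1a2 went from 1468 to 252 CPM. Neuronal markers were at 5704 and 5574 CPM in vehicle naive brain and 328 and 332 CPM in vehicle tumor. They were at 2460 and 2525 CPM in MRX-2843 naive brain and 2962 and 2927 CPM in MRX-2843 tumor. All 6 were lower in vehicle tumor than in vehicle naive brain, beside 30.8% of all genes, but Rbfox3 went only from 232 to 207 CPM. Rbfox3 was at 166 CPM in MRX-2843 naive brain and 182 CPM in MRX-2843 tumor, below vehicle tumor. Between the naive brains 5 of the 6 were lower under MRX-2843 and 1 higher, beside 11.7% and 9.78% of all genes. Slc17a7 was at 1684 CPM in vehicle naive brain and 150 CPM in MRX-2843 naive brain, and Gad1 at 226 and 341 CPM. Oligodendrocyte markers were at 7323 and 7257 CPM in vehicle naive brain, 430 and 448 CPM in vehicle tumor, 7460 and 7382 CPM in MRX-2843 naive brain and 13728 and 14176 CPM in MRX-2843 tumor. The 6 ependymal markers were low throughout, at 5.83 and 6.05 CPM in vehicle naive brain, 5.05 and 4.15 CPM in vehicle tumor, with Pifo at 0 counts there, 12.7 and 9.07 CPM in MRX-2843 naive brain and 20.6 and 19.4 CPM in MRX-2843 tumor. The part of these shifts in cell type markers in the GTPase results was not tested.

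**Figure D5:**
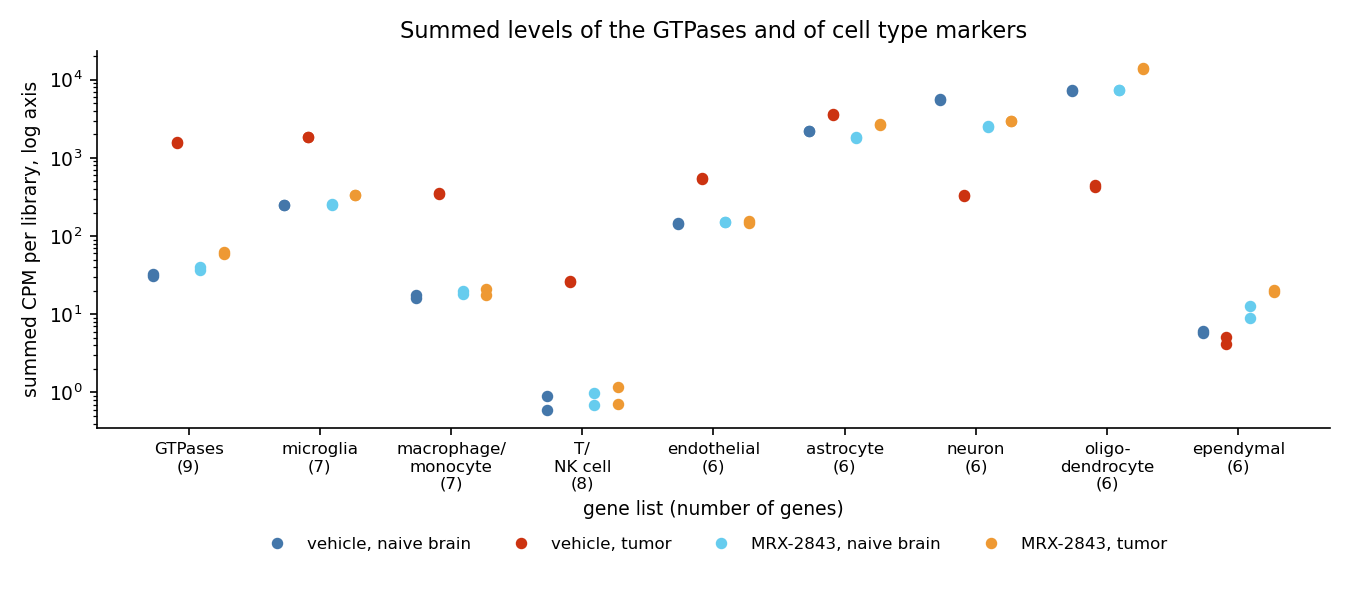
Summed CPM per library (log axis) of the 9 GTPases and of 8 lists of cell type markers, coloured by group. The GTPases and the microglial, macrophage, T and NK cell and endothelial sums are highest in vehicle tumor, the neuronal and oligodendrocyte sums are lowest there, and the oligodendrocyte and ependymal sums are highest in MRX-2843 tumor.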

How the data were processed

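The authors deposited raw counts of reads per gene, whole numbers, for 8 libraries in 4 groups of 2. Per the submitters' processing notes, STAR 2.7.7a, SAMtools, featureCounts, Subread and the builds hg38 and mm10 were used, with no roles given; the annotation, strand setting and handling of multiply aligned reads are not given in the sources used here. Of the gene identifiers, 52081 (94.0%) matched GENCODE M21 without their version and 35 with it, so positions and lengths come from another release than the counts.

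The model was edgeR 4.0.16's quasi-likelihood fit, run in R 4.3.3, with TMM scaling and a mean for each of the 4 groups. Genes had to pass filterByExpr at a minimum count of 10. The fit had 4 residual degrees of freedom, and its common coefficient of biological variation was 21.0%. Calls are Benjamini-Hochberg adjusted p-values under 0.05 over all 24356 tested genes. SE is the size of the log2 fold change divided by the root of its F. Depth sets the floor: 3 counts, allowed by a count of 0, are 0.0281 to 0.0615 CPM per library, which covers counting error only. Duplicates differed by more than counting noise and were kept as 2 libraries. The fit was also run on simulated counts. In these, few genes changed, and by less than the GTPases rose in vehicle tumor, so the run cannot show how the fit behaves at such differences. Motifs were searched in RefSeq windows with Python 3.11.15, pandas 2.3.3 and NumPy 2.4.6, and plots made with matplotlib 3.10.9.

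All 9 members are named, with up to 4 genes of each pathway list by smallest adjusted p in vehicle tumor against vehicle naive brain; other genes of the lists, among them Gbp2b, Ifng, Ifngr1, Ifngr2, Jak1, Jak2, Irf1, Irgq and Irgc1, are named for their role or as exceptions. A gene that this rule names is not reported here. Likeness used genes with a mean log2 CPM of at least 2. The members and lists were chosen with earlier results of these data known. Alternatives were median-of-ratios scaling, library totals, DESeq2 1.42.0, a replicate block, no filter on low counts, a filter of 1 CPM or more in 2 libraries, a fit without mitochondrially encoded genes, only the groups compared and leaving out each library. Fits without both libraries of a tumor group were added after the data were seen.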

Additional observations from a re-analysis of the deposited data

Results flagged for a closer look

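For all 9 GTPases the log2 difference between tumor and naive brain under MRX-2843 was below that under vehicle by a test of the interaction itself (edgeR's quasi-likelihood test, adjusted p 2.7e-09 or smaller for each). The difference between the contrasts was -4.44 for Gbp2, -5.41 for Gbp3, -3.98 for Gbp5 and -4.19 for Gbp7. It was -5.15 for Irgm1, -4.51 for Irgm2, -4.63 for Igtp, -5.64 for Iigp1 and -6.03 for Tgtp2. Of all tested genes, 51.6% passed this test in either direction.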

How the results depend on the processing

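With 2 libraries per group, only differences well above the spread are firm. The rises of all 9 GTPases in vehicle tumor, their lower level in MRX-2843 tumor than in vehicle tumor and the negative interaction kept direction and call under every alternative run. Of 747 member values over all comparisons and alternatives, 728 kept both, 10 lost the call, 4 gained it and 5 changed sign. The sign changes were of values that had not passed the test. Without the second MRX-2843 naive library, Irgm1 was at -0.14 in MRX-2843 tumor against MRX-2843 naive brain (-0.14 to 0.30 over the libraries left out), and in the comparison of naive brains Gbp7 was at -0.077 (-0.077 to 0.49), Irgm2 at 0.15 (-0.22 to 0.15) and Iigp1 at -0.023 (-0.023 to 0.21). Irgm2 was at 0.13 there without the second vehicle naive library. Library totals in place of TMM moved the median of all genes by 0.24 in vehicle tumor against naive brain, -0.21 in MRX-2843 tumor against vehicle tumor and -0.22 in the interaction, and no member changed direction under it. Deviations of duplicates with the same duplicate number were little correlated between groups (-0.09 to 0.07). If the duplicates are technical, this cannot show whether groups share animals, and pairing by the column number was not tested. A replicate block left 9, 9, 7, 3 and 9 members called, as without it.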
